A study of Mus musculus with 2 samples.

Results

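Malat1, Neat1, Kcnq1ot1, Rnu11 and 6 predicted genes (Gm34455, Gm43221, Gm44860, Gm36638, Gm37082 and Gm43462) are transcribed into RNA with no protein product and were followed here as 10 of the 55357 genes in the count tables. They were found by symbol, and each symbol matched 1 row. They were chosen by measured values of these libraries, most of them for low CPM in the knockout library relative to the wild-type library. Their differences between the libraries are therefore a description, with no test.

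Many long noncoding RNAs stay in the nucleus. Malat1 gathers in nuclear speckles, bodies rich in splicing factors, and Neat1 is the scaffold around which paraspeckles form. Kcnq1ot1 is transcribed from the paternal chromosome antisense to the potassium channel gene Kcnq1 and silences neighbouring imprinted genes there. Rnu11 encodes U11, the small nuclear RNA that recognises the 5′ splice site of the rare introns removed by the minor spliceosome. The predicted genes have no established function. Gm44860, Gm36638 and Gm37082 have the annotated kind TEC, which marks transcribed loci still in need of experimental support.

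The cells were sorted as positive for CD45 and CD11b, surface proteins of microglia and other myeloid cells, out of the cerebral cortex of mice aged 8 weeks. There was 1 wild-type library and 1 Msn knockout library, the latter without moesin, a protein that ties the cell membrane to actin. Each library pooled the cortices of 5 to 6 mice and was made from polyadenylated RNA with droplet 3′ chemistry. C57BL/6 is named for the knockout mice, while the wild-type strain, the sex of either group and the deleted part of Msn were not stated in the sources used here. With 1 library per genotype, genotype and library cannot be told apart and no difference has a replicate check.

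The wild-type library held 5842 barcodes with a median of 6706 unique molecular identifiers (UMIs), and the knockout library 9038 with a median of 4816. The median mitochondrial share was 1.45% and 0.557%. Cells with both P2ry12 and Tmem119, genes of microglia, numbered 4972 wild-type (89.2% of the cells kept, 58958918 UMIs) and 4481 knockout cells (59.2%, 34650786 UMIs). Cells with Ace or Ly6c2, genes of monocytes, numbered 55 and 687, and cells with both Mrc1 and Pf4, genes of border macrophages, 25 and 133. Cells passing several of these gates (303 and 1232) were left out. The libraries shared 13 barcodes, 3 of them in gated microglia. Levels are given as CPM, the UMIs of a gene scaled to the total of its class and library. Msn went from 320.1 CPM in wild-type to 20.5 CPM in knockout gated microglia, which checks the labels only if the 3′ tags fall within the deleted part.

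In gated microglia 9 of the 10 noncoding RNAs were lower in the knockout library by the rule of 1.5-fold, and Malat1 lay within it. Relative to the median gene the log2 ratios of the 9 ran from −4.57 for Gm43221 to −1.23 for Kcnq1ot1, and the median of all 10 was −1.39. The median log2 ratio of the 8726 measured genes (10 CPM or more in either library) was −0.29 on the CPM scale, and ratios are given relative to it unless the CPM scale is named. Of all measured genes, 12.4% were lower and 15.0% higher by the same rule, and on the CPM scale 30.3% were lower and 4.65% higher. Since the 10 genes were chosen with this contrast known, nothing is read from their count. The 9 were also lower on the CPM scale. Intervals are exact, at 95%, and cover counting error only.

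**Figure D1:**
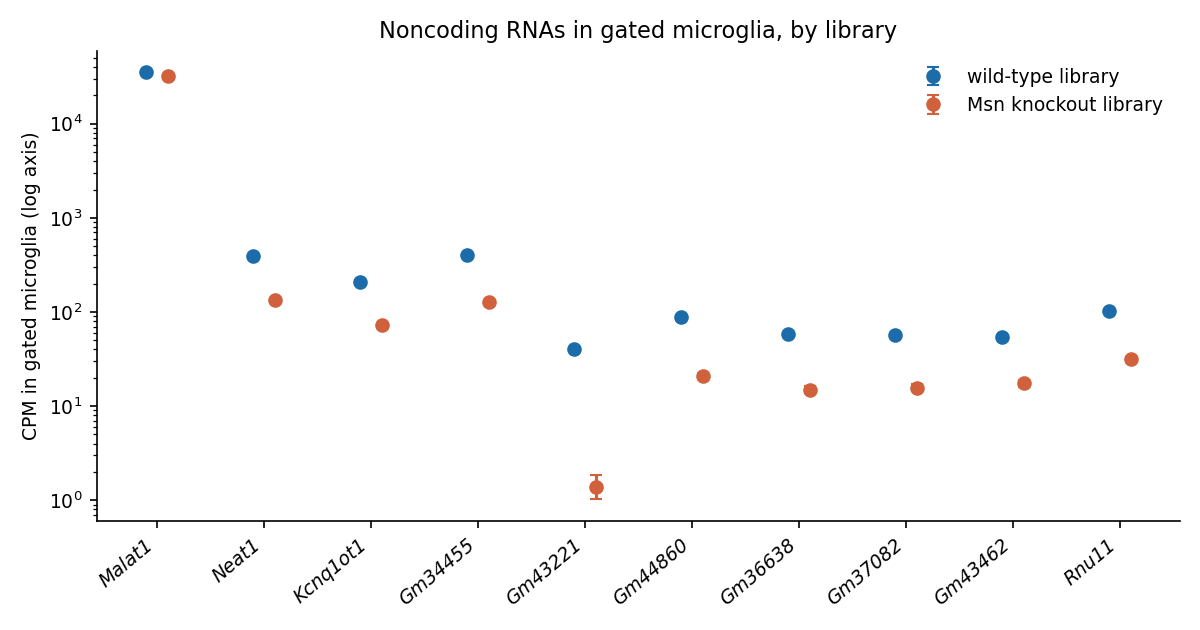
CPM of each of the 10 noncoding RNAs (log axis) in gated microglia of the wild-type and the Msn knockout library, with exact 95% Poisson intervals. In 9 genes the knockout point lies well below the wild-type point, with Gm43221 at 40.2 and 1.39 CPM, while the Malat1 points (35292 and 32248 CPM) lie close together.

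Malat1 (ENSMUSG00000092341) was the member whose level barely differed. It stood at 35292 CPM (35244 to 35340) in wild-type and 32248 CPM in knockout gated microglia, a log2 ratio of 0.16 relative to the median gene that turned to −0.13 on the CPM scale. Both values lay within 1.5-fold. The median cell gave 3.55% of its UMIs to Malat1 in wild-type and 3.28% in knockout gated microglia. The spread over cells was wider in the knockout library, whose gated microglia had a median of 5581 UMIs against 7212.5 in the wild-type library. There the 5th and 95th percentiles were 1.43% and 6.34%, against 2.37% and 5.71%. The gene lies on the minus strand of chromosome 19 (chr19:5845717-5853602, GRCm39) as 1 exonic block of 7886 bp. The TEC gene Gm37376, annotated on the opposite strand inside Malat1, went from 79.5 to 27.9 CPM (−1.22, −1.32 to −1.12). Gm37376 thus lay below the 1.5-fold rule where Malat1 did not.

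The 3′ end of Malat1 RNA is known to be made by cleavage before a tRNA-like small RNA rather than by ordinary polyadenylation, and a U-rich stretch folds back on an A-rich tract to protect it. The stretch is shown because it holds these elements in a gene that poly(A)-selected libraries still detect strongly. It spans chr19:5845936-5846105 on the minus strand (GRCm39), 5′ to 3′, with the U-rich stretch and the run of 12 A in capitals. The U-rich stretch was found as 10 bases that start and end in T and hold at least 9 T.
Malat1: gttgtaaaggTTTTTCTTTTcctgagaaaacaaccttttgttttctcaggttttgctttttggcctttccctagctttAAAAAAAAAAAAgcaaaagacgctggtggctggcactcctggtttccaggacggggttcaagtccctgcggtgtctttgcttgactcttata
The gene held 6 such U-rich stretches in all, and the annotation ran on for 299 bases after the A run. Both elements are common by their letters alone. Of 3735 lncRNA genes spanning 6000 to 10000 bp, 40.7% held a run of 12 A on the transcribed strand and 38.2% on the other, and 88.8% and 89.5% a U-rich stretch.

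Neat1 (ENSMUSG00000092274, chr19:5874736-5897132, minus strand) lies near Malat1 and was lower in the knockout library in all 3 gated classes. In gated microglia it went from 398 CPM (392 to 403) to 134 CPM (130.2 to 138), 2.97-fold lower on the CPM scale and −1.27 (−1.32 to −1.23) relative to the median gene. A Neat1 UMI was found in 78.1% of wild-type and 46.2% of knockout gated microglia. With each cell thinned to 2000 UMIs the shares were 44.6% (43.2 to 46.1) and 20.5% (19.2 to 21.7). Frmd8os, which overlaps the start of Neat1 on the opposite strand, had 14 and 5 UMIs, and the small RNA genes annotated inside Neat1 had none. Both Neat1 isoforms begin at the same start, and 3′ tags summed per gene do not separate the short polyadenylated isoform from the long one.

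Kcnq1ot1 (ENSMUSG00000101609, chr7:142731402-142850327, minus strand) lies inside Kcnq1 in antisense orientation. It went from 207 CPM (203 to 211) to 71.9 CPM (69.1 to 74.8) in gated microglia, a relative log2 ratio of −1.23 (−1.29 to −1.17). Kcnq1 itself had 0 UMIs in gated microglia of both libraries, which allows up to 0.0509 CPM (wild-type) and 0.0866 CPM (knockout), so no Kcnq1 signal could be set beside its antisense RNA. Of 15 listed genes of the imprinted domain 7 were measured, with 1 higher, 0 lower and 6 within 1.5-fold (on the CPM scale 0 higher and 1 lower). Among all measured genes 12.4% were lower and 15.0% higher. Cdkn1c, a cell cycle inhibitor silenced on the paternal chromosome of this domain, stood at 21.3 and 23.3 CPM (0.42). Cd81, a tetraspanin of the same domain, went from 2064 to 2788 CPM (0.73, but 0.43 on the CPM scale, within the rule), and Tssc4 from 57.5 to 35.9 CPM (−0.39). Cars stood at 30.1 and 21.2 CPM (−0.21).

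Gm34455 (ENSMUSG00000118107, chr17:26686205-26723912, minus strand) is a lncRNA whose start lies 652 bp past the end of Dusp1, the gene of a stress-induced phosphatase of MAP kinases, on the same strand. Gm34455 went from 401 CPM (396 to 406) to 128 CPM (124 to 132), a relative log2 ratio of −1.36 (−1.40 to −1.31). Dusp1 went the other way, from 3775 to 4834 CPM (0.65, 0.64 to 0.66, but within 1.5-fold on the CPM scale). The 2 genes, annotated in tandem, thus differed in sign between the libraries. With cells thinned to 2000 UMIs, 46.9% of wild-type and 20.3% of knockout gated microglia had a Gm34455 UMI, and without thinning 78.5% and 46.5%.

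Gm43221 (ENSMUSG00000106108, chr3:108907340-108913661, plus strand) had the lowest ratio of all 8726 measured genes, with Msn next. It had 2373 UMIs in wild-type gated microglia, or 40.2 CPM (38.6 to 41.9), and 48 in knockout gated microglia, or 1.39 CPM (1.02 to 1.84). The relative log2 ratio was −4.57 (−5.01 to −4.16). Of wild-type gated microglia 31.2% held a UMI of it and of knockout gated microglia 1.05% (0.772 to 1.39), and after thinning 7.71% and 0.217%. The wild-type UMIs were spread over many cells, since the 10 cells with the most held 2.53% of them.

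Gm43221 lies inside Eeig2 on the opposite strand, without exonic overlap. Eeig2 went from 456 to 231 CPM (−0.69, −0.73 to −0.65), past the 1.5-fold rule but far less. The other measured genes annotated within about a megabase ranged from −0.86 (Cyb561d1, 14.7 to 6.64 CPM) to 0.44 (Sars1, 74.0 to 82.0 CPM). Prpf38b, a splicing factor gene among them, stood at 381 and 287 CPM (−0.12). No neighbour thus came near the ratio of Gm43221.

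Gm36638, Gm37082 and Gm43462 lie in introns of longer protein-coding genes on the same strand, with no exonic overlap, and were far lower in the knockout library than the genes around them. Gm36638 (ENSMUSG00000104214, chr13:101886228-101888396, minus strand) went from 58.3 CPM (56.4 to 60.3) to 14.9 CPM (13.7 to 16.3), a relative log2 ratio of −1.67 (−1.81 to −1.54). Its host Pik3r1, the regulatory subunit of PI3 kinase, stood at 546 and 381 CPM (−0.22). Gm37082 (ENSMUSG00000102850, chr9:32446547-32448473, minus strand) went from 56.4 CPM (54.5 to 58.4) to 15.6 CPM (14.3 to 17.0), or −1.56 (−1.69 to −1.43). Its host Fli1, an ETS transcription factor of blood cells, stood at 220.5 and 136 CPM (−0.40). Gm43462 (ENSMUSG00000105561, chr3:100534613-100538260, minus strand) went from 54.0 CPM (52.1 to 55.9) to 17.4 CPM (16.1 to 18.9), or −1.34 (−1.47 to −1.21). Its host Man1a2, a mannosidase of the Golgi, stood at 302 and 258 CPM (0.06). The 3 members were chosen for low ratios, so their place below their hosts is a description.

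Predicted genes nearest to them on the same strand were low as well. Gm37474, a TEC gene 8293 bp from Gm37082, went from 123 to 47.4 CPM (−1.08), and Gm42869, a lncRNA gene 275 bp from Gm43462, from 23.1 to 7.19 CPM (−1.39). Gm54655, 918 bp from Gm36638, had 184 and 25 UMIs (−1.82, −2.48 to −1.21).

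Gm44860 (ENSMUSG00000109245, chr7:89679779-89682124, plus strand) is a TEC gene inside the lncRNA gene E230029C05Rik, with which it shares 464 exonic bases on the same strand, so reads there may be split between them. It went from 88.3 CPM (85.9 to 90.7) to 21.1 CPM (19.6 to 22.7), or −1.77 (−1.89 to −1.66). E230029C05Rik went from 238 to 103 CPM (−0.92, −0.97 to −0.87). Here gene and host were both lower past the rule, the TEC gene by more.

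**Figure D2:**
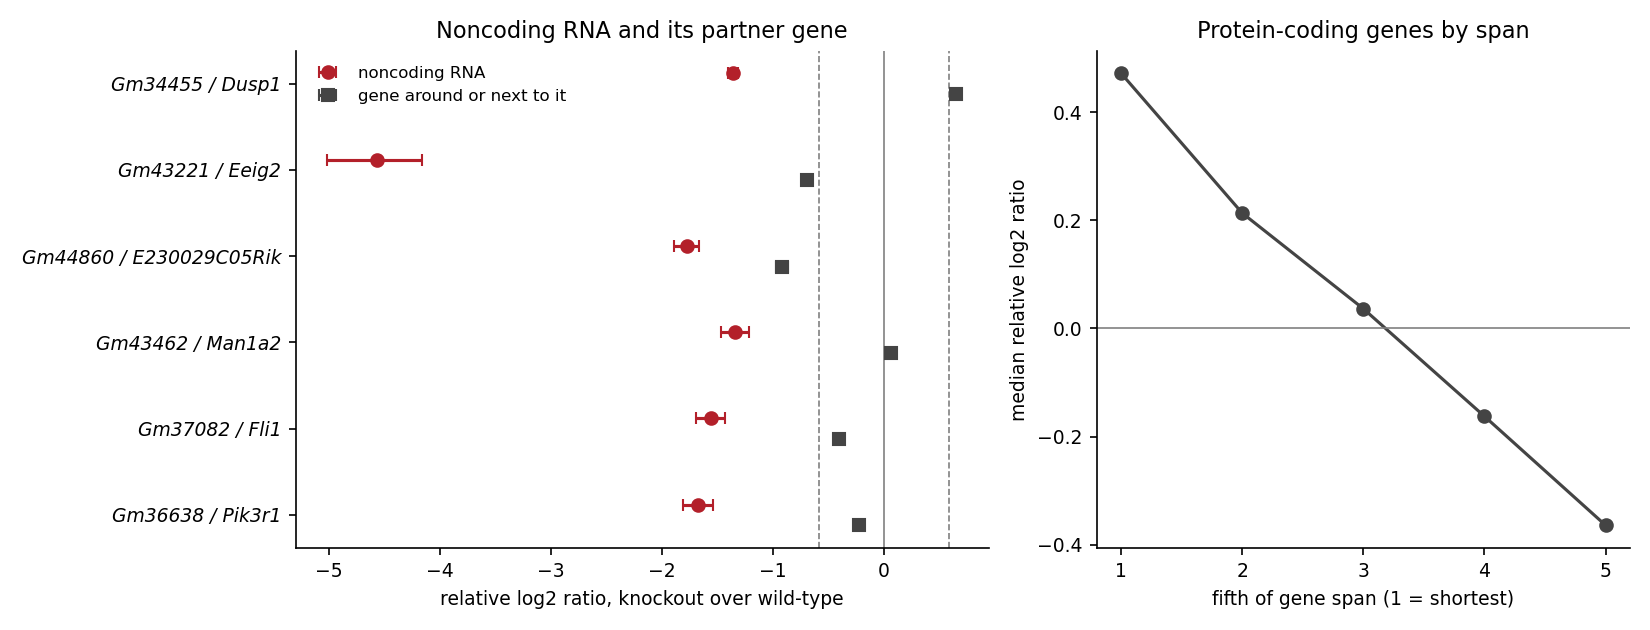
Left, relative log2 ratio (knockout over wild-type, gated microglia) of 6 predicted noncoding RNAs (circles) and of the gene around or next to each (squares), with exact 95% intervals and dashed lines at 1.5-fold; every circle lies left of its square, and Dusp1 lies to the right of 0. Right, median relative log2 ratio of measured protein-coding genes in quintiles of gene span, falling from 0.47 in the shortest to −0.36 in the longest.

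The last 50 bases of the annotated genes are shown for 4 predicted genes, because the libraries were primed on poly(A) and the hexamer AATAAA is the common signal for adding it. Sequences run 5′ to 3′ on the gene's strand (GRCm39), with AATAAA in capitals. Gm36638, Gm43462 and Gm43221 hold it, while Gm37082 does not. They end at chr13:101886228-101886277, chr3:100534613-100534662, chr3:108913612-108913661 and chr9:32446547-32446596.
Gm36638: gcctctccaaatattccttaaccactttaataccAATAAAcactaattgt
Gm43462: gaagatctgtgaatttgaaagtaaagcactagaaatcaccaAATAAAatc
Gm43221: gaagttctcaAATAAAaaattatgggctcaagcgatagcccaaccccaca
Gm37082: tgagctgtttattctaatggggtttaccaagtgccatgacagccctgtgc
The signal starts 16 bases before the end in Gm36638, 9 in Gm43462 and 40 in Gm43221. It also stands in the last 50 bases of Malat1, Kcnq1ot1, Gm34455 and Gm44860, and not in those of Neat1 and Rnu11. Among all annotated genes 56.0% of protein-coding, 43.6% of lncRNA and 22.0% of TEC genes hold it there, against 6.48%, 4.21% and 4.57% on the opposite strand. Members with the signal and without it were both among the 9 lower genes.

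Rnu11 (ENSMUSG00000077323, chr4:131997391-131997524, minus strand), the U11 RNA, went from 103 CPM (101 to 106) to 31.4 CPM (29.6 to 33.3), or −1.42 (−1.52 to −1.33). U11 is not polyadenylated in its mature form, and the whole gene is shown for that reason. In capitals is ATTTTTTG at bases 88 to 95, a stretch like the Sm sites on which spliceosomal RNAs bind their protein ring.
Rnu11: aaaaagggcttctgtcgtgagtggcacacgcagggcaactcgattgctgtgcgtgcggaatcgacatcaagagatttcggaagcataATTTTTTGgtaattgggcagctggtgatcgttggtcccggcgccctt
These letters stood in 1.52% of 1188 annotated snRNA genes of 100 to 200 bp, and in 0.253% on the opposite strand. The annotated lncRNA gene Gm70675 covers Rnu11 on the same strand, with 134 shared exonic bases, and was not in the count tables. The part of its RNA in the Rnu11 UMIs was not tested. The lncRNA gene Gm28872 covers Rnu11 on the opposite strand and had 1 and 0 UMIs. Gm28874, 1239 bp away, went from 5.46 to 2.54 CPM (−0.81).

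Of 13 measured genes of the minor spliceosome 2 were lower, 2 higher and 9 within 1.5-fold, with a median of 0.10. Among all measured genes 12.4% were lower and 15.0% higher. Rnu12, the U12 partner RNA of U11, went from 10.2 to 3.38 CPM (−1.30, −1.60 to −1.01), in the direction of Rnu11. Zrsr1, the gene of a protein related to the 3′ splice site factor U2AF, went from 27.5 to 10.2 CPM (−1.14). Snrnp25 and Zmat5, protein genes of the U11/U12 particle, went from 7.75 to 10.2 CPM (0.69, but within the rule on the CPM scale) and from 29.1 to 47.7 CPM (1.01). Rnu11 and Rnu12 were thus both lower, while the protein genes lay on both sides.

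Genes annotated as noncoding were more often lower than protein-coding genes. Of 194 measured TEC genes 70.1% were lower past the rule and 0.515% higher, with a median of −0.94. Of 210 lncRNA genes 38.1% were lower and 7.62% higher (median −0.25), and of 8248 protein-coding genes 10.2% and 15.5% (median 0.03). These groups include the members: 3 TEC genes and 6 lncRNA genes. Genes of these 2 noncoding kinds in an intron of a protein-coding gene on the same strand, a grouping made after the values were seen, numbered 182, of which 72.5% were lower, with a median of −0.93. Of the 231 other lncRNA and TEC genes 90 were lower, with a median of −0.28. The low ratios of Gm36638, Gm37082 and Gm43462 thus lay beside a low median of genes in the same position.

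**Figure D3:**
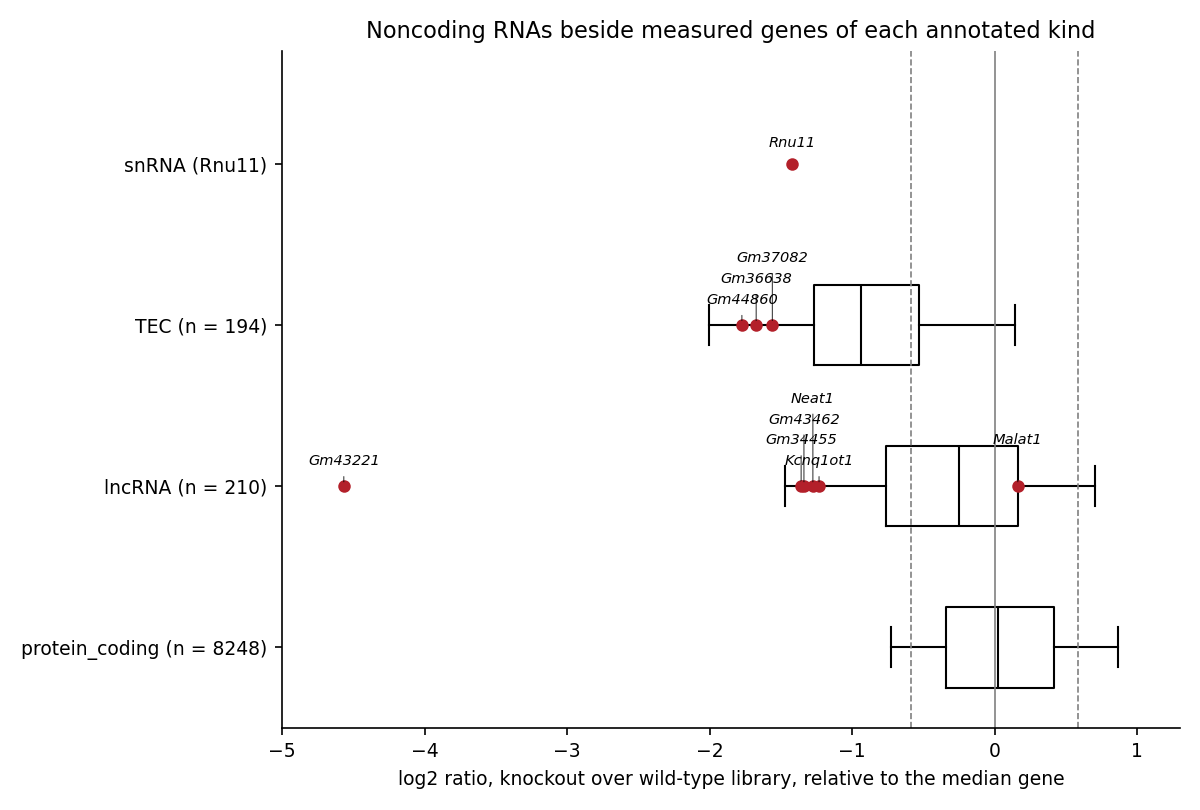
Relative log2 ratio (knockout over wild-type, gated microglia) of measured protein-coding, lncRNA and TEC genes, as boxes of the middle 50% with a line at the median and whiskers from the 5th to the 95th percentile; red points are the members and dashed lines mark 1.5-fold. Malat1 lies at 0.16 (−0.13 on the CPM scale), the other lncRNA members between −1.36 and −1.23 except Gm43221 at −4.57, and the TEC members at −1.77, −1.67 and −1.56.

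Protein-coding genes themselves differed with the length of their span, a grouping also made after the values were seen. In quintiles of span, with medians of 5864.5, 14495, 26694, 48111 and 111892 bp, the median relative log2 ratios were 0.47, 0.21, 0.04, −0.16 and −0.36. The share lower past the rule went from 3.76% in the shortest quintile to 22.8% in the longest. Pik3r1, Fli1 and Man1a2 belong to the longest, and their values of −0.22, −0.40 and 0.06 lay close to its median or above it. Whether intronic reads were counted was not stated in the sources used here, and its part in these values was not tested.

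TEC genes with and without a run of A inside them had like ratios. Of 124 measured TEC genes spanning 1500 to 4000 bp, 45.2% held a run of at least 10 A on the transcribed strand and 40.3% on the opposite one, against 22.0% and 29.2% of the 1846 annotated. The median relative log2 ratio was −0.93 with such a run and −0.99 without. Among the members the longest run was 5 A in Gm36638 and Gm44860, 8 in Gm37082, 9 in Gm43221, 15 in Gm43462 and 41 in Kcnq1ot1, which held 12 runs of at least 10.

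Across the gated classes the members fell into different patterns. In the wild-type library Malat1 stood at 37130 CPM (36038 to 38246) in border macrophages, 35292 CPM in microglia and 15691 CPM (15308 to 16082) in monocytes. In the knockout library it stood at 32248 CPM in microglia, 30073 CPM in border macrophages and 20037 CPM in monocytes. Monocytes were lowest in both libraries, and microglia over monocytes was 2.25-fold (2.19 to 2.31) and 1.61-fold (1.60 to 1.62). Microglia and border macrophages differed by less than 1.5-fold, in opposite directions.

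Neat1 was highest in border macrophages, at 857 CPM (698 to 1041) in wild-type and 326 CPM (277 to 381) in knockout cells. Microglia (398 and 134 CPM) and monocytes (440 and 136 CPM) did not differ beyond counting error in either library, with microglia over monocytes at 0.904-fold (0.780 to 1.05) and 0.988-fold (0.903 to 1.08). Border macrophages were thus highest in both libraries. Their wild-type value rested on 25 cells, 10 of which held 83.2% of the Neat1 UMIs. Knockout over wild-type was −1.27 in microglia, −1.51 (−1.76 to −1.26) in monocytes and −1.23 (−1.60 to −0.85) in border macrophages, each relative to the median of its class. The difference between classes was not tested.

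Kcnq1ot1 was higher in microglia than in monocytes, by 16.8-fold (7.18 to 51.6) in wild-type and 6.76-fold (4.97 to 9.45) in knockout cells. Its monocyte levels, 12.3 and 10.6 CPM, rested on 5 and 41 UMIs. Sall1, a transcription factor gene of microglia that monocytes should lack, stood at 14.8 and 10.6 CPM in the same monocytes, and at 324 and 152 CPM in microglia. The Kcnq1ot1 signal in monocytes was therefore at or below the level of a gene they should lack, and is read as background. Border macrophages held 33.9 CPM (9.24 to 86.9) and 43.3 CPM (26.8 to 66.2) of Kcnq1ot1.

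Gm34455 was 8.12-fold (5.26 to 13.3) higher in microglia than in monocytes of the wild-type library and 8.08-fold (6.28 to 10.6) in the knockout library. In border macrophages it stood at 288 CPM (200 to 403) and 76.3 CPM (53.7 to 105), below microglia by 1.39-fold (0.996 to 2.01) and 1.68-fold (1.21 to 2.38). The 12 microglia markers, summed, made 4232 CPM of wild-type and 5627 CPM of knockout border macrophage RNA, against 28959 and 28980 CPM in microglia. The part of microglial RNA in the border macrophage values was not tested.

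Gm43221 had 0 UMIs in monocytes of both libraries, which allows up to 7.41 CPM in the 55 wild-type cells and 0.778 CPM in the 687 knockout cells. In shares, 0 of 55 cells allows up to 5.45% and 0 of 687 up to 0.437%. Its level in wild-type microglia was thus at least 5.43-fold higher than in monocytes. In border macrophages it had 1 wild-type UMI and 0 knockout UMIs.

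Gm44860, Gm36638, Gm37082, Gm43462 and Rnu11 were low in monocytes, at 4.94 to 17.3 CPM in the wild-type library on 2 to 7 UMIs each. In the knockout library they stood at 2.59 to 5.45 CPM on 10 to 21 UMIs, and microglia over monocytes ranged from 3.87-fold (2.51 to 6.29) for Gm44860 to 5.77-fold (3.75 to 9.35) for Rnu11. Rnu11 in wild-type border macrophages, at 110 CPM (58.7 to 189), did not differ from microglia beyond counting error. Of 10 members, 9 were at least 1.5-fold higher in microglia than in monocytes in each library, with Neat1 the exception, and Gm43221 was counted against the floor of 3 UMIs. In the knockout library Gm43221 lay under 10 CPM in both classes, which left 8 of 9 members. Among all genes at 10 CPM or more in either class, 44.5% of wild-type and 41.5% of knockout values were higher in microglia by the same rule. Where cells passing several gates were kept in each class, the number was 0 for the wild-type library and 2 for the knockout library.

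**Figure D4:**
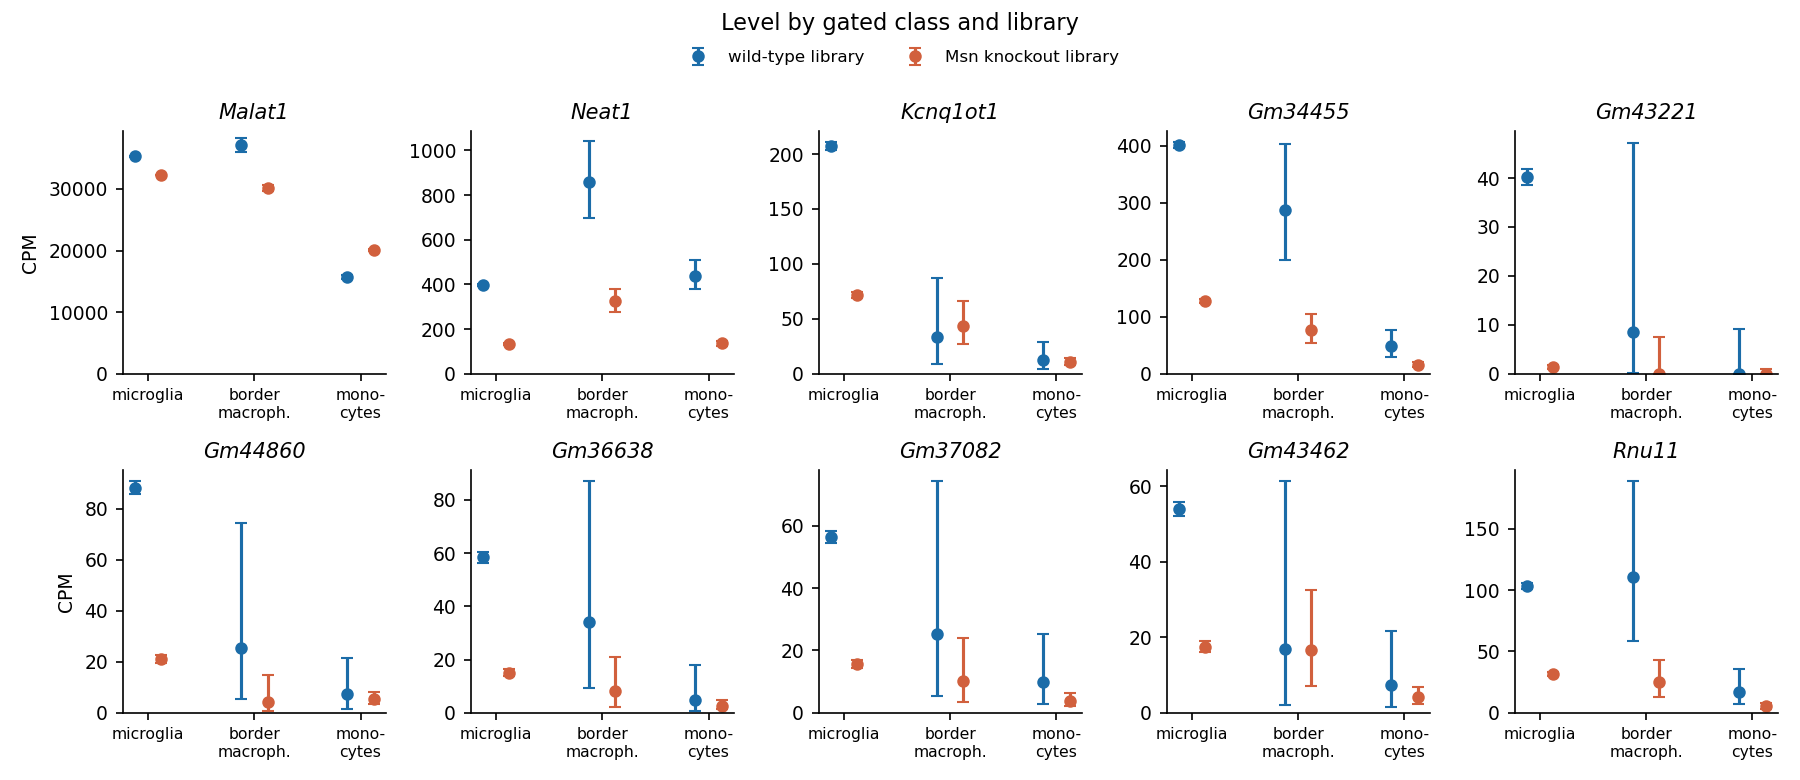
CPM of each noncoding RNA (1 panel per gene, axis from 0) in gated microglia, border macrophages and monocytes of the wild-type and the Msn knockout library, with exact 95% Poisson intervals for counting error. Neat1 is highest in border macrophages of both libraries, and Malat1 is the gene whose monocyte level is higher in the knockout library (20037 against 15691 CPM).

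In gated monocytes 5 members reached 10 CPM in either library. Of these, 3 (Neat1, Gm34455 and Rnu11) were lower in the knockout library and 0 higher. Among measured genes 22.2% were lower and 19.9% higher (on the CPM scale 29.5% lower). Rnu11 rested on 7 and 21 UMIs, at −1.48 (−2.77 to −0.004) relative to the median. It stood at 17.3 and 5.45 CPM, beside 14.8 and 10.6 CPM of Sall1, a gene that monocytes should lack. Kcnq1ot1 and Malat1 lay within 1.5-fold, Malat1 at 0.54 relative to the median and 0.35 on the CPM scale. The monocyte gate held other cells' markers in unequal amounts: NK cell markers summed to 84.0 and 1016 CPM (2 and 8 of 8 detected) and neutrophil markers to 729 and 2081 CPM (3 and 7 of 7). Choroid plexus and ependymal markers were at 0 and 584 CPM (0 and 4 of 5), and microglia markers at 1583 and 1207 CPM (12 of 12 in each). Of the gate genes Ly6c2 went from 1865 to 877 CPM and Ace from 237 to 416 CPM. Their part in the monocyte values was not tested. In border macrophages 9 were measured and 6 lower, with 0 higher, beside 29.9% of measured genes lower and 30.1% higher (on the CPM scale 35.3% lower and 24.0% higher), and several of these rested on 2 to 5 UMIs. Of the 6, Neat1 (−1.23), Gm34455 (−1.75, −2.46 to −1.04) and Rnu11 (−1.99, −3.25 to −0.74) had intervals below 0.

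Gated microglia of 500 to under 2500 UMIs, the shallowest, stood apart in the level of most members and in mitochondrial share. Their median mitochondrial share was 3.38% (wild-type) and 1.31% (knockout), against 1.34% to 1.44% and 0.443% to 0.464% in the 4 deeper bins. In the wild-type library Malat1 stood at 64574 CPM in these cells, at 40290 CPM in the next bin and at 34069 CPM in cells of 20000 UMIs or more, and in the knockout library at 49431, 36448 and 29724 CPM. Shallowest over deepest was 1.90-fold (1.87 to 1.92) and 1.66-fold (1.64 to 1.68). The parts of depth and of mitochondrial share in these levels were not tested. Neat1 and Gm34455 behaved differently in the 2 libraries. In the wild-type library their CPM in the shallowest cells was 0.983-fold (0.815 to 1.17) and 0.910-fold (0.750 to 1.09) that of the deepest. In the knockout library it was 1.77-fold (1.49 to 2.09) and 2.43-fold (2.07 to 2.83). Gm36638 differed in the same way, at 1.29-fold (0.793 to 1.97) in the wild-type and 3.39-fold (2.15 to 5.19) in the knockout library. So did Gm43462, at 1.28-fold (0.790 to 1.96) and 2.20-fold (1.38 to 3.38). The difference between the libraries in this respect was not tested.

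**Figure D5:**
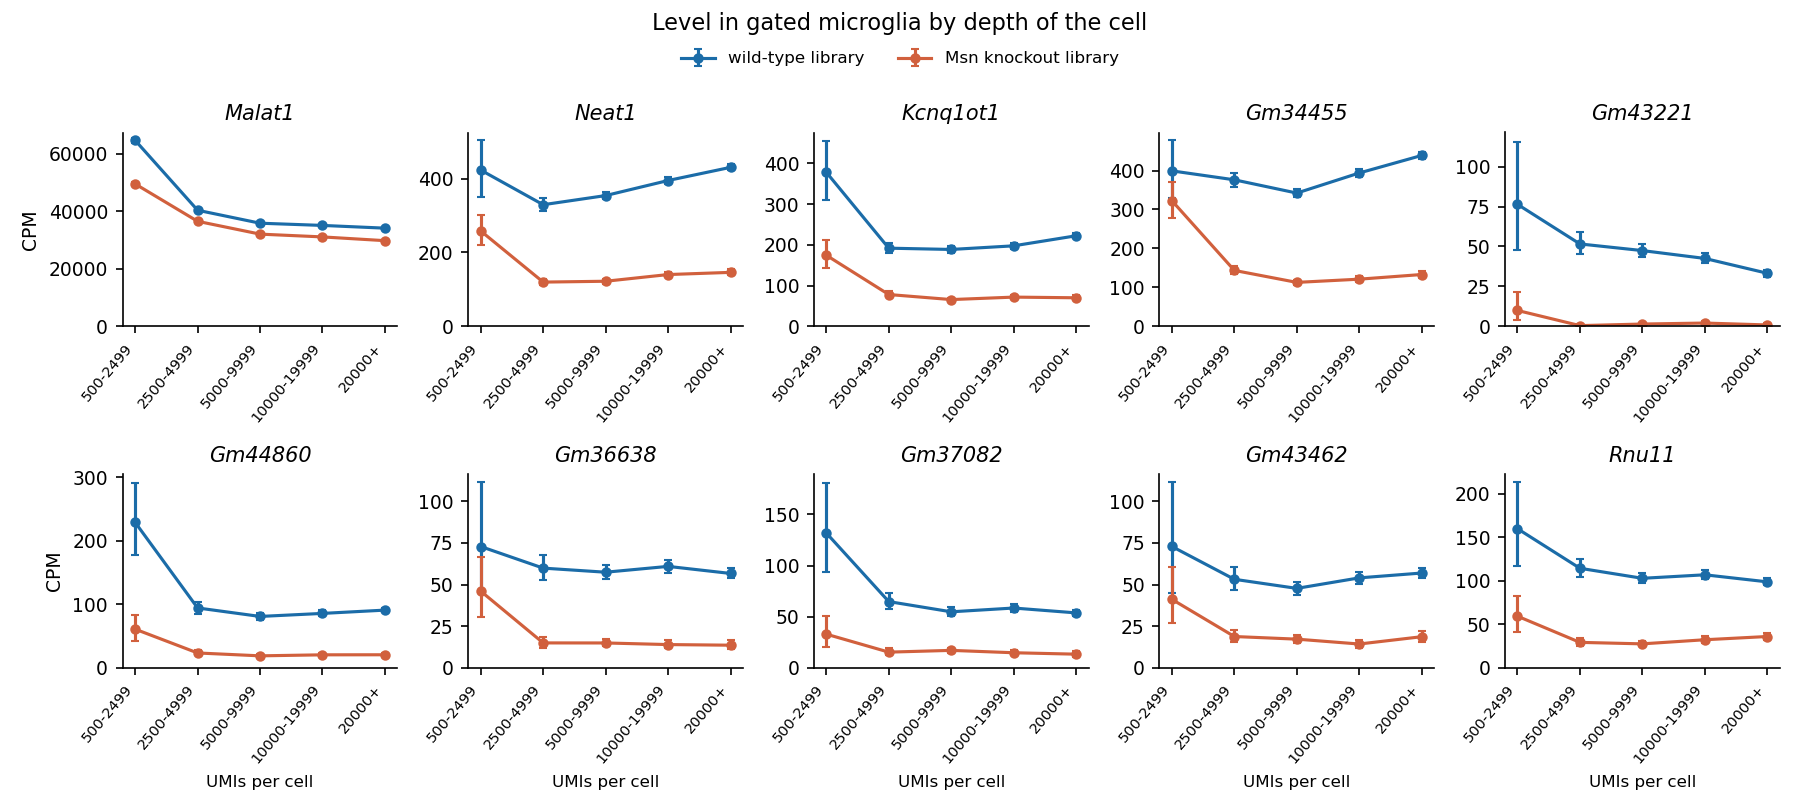
CPM of each noncoding RNA (1 panel per gene, axis from 0) in gated microglia by UMIs per cell, for the wild-type and the Msn knockout library, with exact 95% Poisson intervals. In the 4 bins from 2500 UMIs up the knockout line lies well below the wild-type line in all genes but Malat1, while in the shallowest bin the intervals of Gm34455, Gm36638 and Gm43462 overlap.

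In the 4 bins of at least 2500 UMIs the 9 genes were lower past the rule throughout. Neat1 lay between −1.26 and −1.19 there, Kcnq1ot1 between −1.36 and −1.03, and Gm34455 between −1.41 and −1.12. In the shallowest bin, with 182 wild-type and 422 knockout cells, 4 of the 9 lay within 1.5-fold relative to the median gene. On the CPM scale Neat1 (−0.71), Gm36638 (−0.66) and Gm43462 (−0.83) were lower past the rule there, and Gm34455 (−0.31) lay within it. The values that follow are again relative to the median gene. Gm34455 stood at 399 and 322 CPM (−0.06, −0.40 to 0.29), Neat1 at 423 and 258 CPM (−0.46, −0.81 to −0.11), Gm36638 at −0.41 (−1.28 to 0.48) and Gm43462 at −0.57 (−1.47 to 0.34). Gm44860 (−1.66), Gm37082 (−1.75), Rnu11 (−1.18) and Kcnq1ot1 (−0.87) were still lower. Gm43221 was lower in every bin, by −2.70 (−4.29 to −1.35) in the shallowest, where the knockout library had 6 UMIs. Malat1 was −0.13 in the shallowest bin and 0.11 to 0.12 in the others, and on the CPM scale it was below 0 in all 5.

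The barcodes under 500 genes, 207 wild-type and 1463 knockout, had levels of their own. Neat1 stood there at 664 and 621 CPM, Gm34455 at 465 and 540 CPM and Malat1 at 55170 and 59537 CPM. Gm43221 stood at 133 and 9.74 CPM, Kcnq1ot1 at 627 and 276 CPM, Gm36638 at 148 and 68.2 CPM and Rnu11 at 73.8 and 32.1 CPM. Gm44860 stood at 133 and 82.8 CPM and Gm37082 at 118 and 73.1 CPM. Gm43462 stood at 73.8 CPM in the wild-type library, inside the knockout interval of 59.2 to 93.7 CPM. In these barcodes Gm43221, Kcnq1ot1 and Gm36638 were lower in the knockout library with intervals that did not meet. The intervals overlapped for Gm44860 (78.7 to 210 and 66.1 to 102 CPM) and Gm37082 (67.5 to 192 and 57.5 to 91.6 CPM). They also overlapped for Rnu11 (35.4 to 136 and 22.1 to 45.1 CPM), Neat1, Gm34455 and Gm43462. Malat1 was slightly higher in the knockout library (53926 to 56435 and 59066 to 60011 CPM).

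Gated microglia of 5000 to under 10000 UMIs were split, within each library, into terciles of mitochondrial share. Neat1 was 327 to 395 CPM over the wild-type terciles and 114 to 136 CPM over the knockout terciles. Gm34455 was 335 to 346 CPM and 105 to 125 CPM, and Gm43221 43.4 to 50.4 CPM and 1.25 to 1.51 CPM. The highest tercile of the knockout library had a median mitochondrial share of 0.710% and the lowest of the wild-type library 0.912%. The tercile medians of the libraries thus did not meet. The part of mitochondrial share in the difference between libraries was not tested.

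For no member did the 10 richest cells hold more than 2.54% of the UMIs in wild-type gated microglia. In knockout gated microglia the share was at most 5.80% for the members other than Gm43221, whose 48 UMIs lay in 47 cells.

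Other named long noncoding RNAs mostly lay within 1.5-fold, as did measured genes as a whole. Among all 8726 measured genes 6332 lay within it, 12.4% were lower and 15.0% higher. Of 24 measured of 51 listed, 4 were lower, 2 higher and 18 within 1.5-fold, with a median of −0.07, and on the CPM scale 7 were lower and 0 higher. AY036118 went from 21.0 to 3.90 CPM (−2.13, −2.40 to −1.88) and Firre, a nuclear RNA of the X chromosome, from 15.5 to 7.62 CPM (−0.73). The small nucleolar RNA host genes Snhg8 and Snhg6 went from 63.5 to 83.4 CPM (0.69) and from 18.9 to 25.1 CPM (0.70), both within the rule on the CPM scale. Xist, which coats the silenced X chromosome of female cells, had 12 and 7 UMIs in gated microglia.

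Genes of the proteins that sit in the bodies built around Neat1 and beside Malat1 mostly lay within 1.5-fold, as did measured genes as a whole. Of 19 measured paraspeckle proteins 1 was lower, 1 higher and 17 within (median −0.20), and on the CPM scale 5 lower and 1 higher. Rbm12 went from 17.5 to 7.85 CPM (−0.86) and Dazap1, an RNA-binding protein, from 40.2 to 65.2 CPM (0.99), with Hnrnph1 at −0.52 and Hnrnpk at 0.33. Of 27 genes of nuclear speckles and RNA processing 2 were lower, 1 higher and 24 within (median −0.15), and on the CPM scale 8 lower and 1 higher. Cwc22, a splicing factor that loads the exon junction complex, went from 348 to 84.4 CPM (−1.75, −1.80 to −1.69). Ddx17, an RNA helicase, went from 189 to 93.8 CPM (−0.71), U2af1, a 3′ splice site factor, from 76.6 to 126 CPM (1.01), and Srsf7 stood at 0.24.

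The genes whose levels most resembled those of 4 members were sought among 6570 genes over 14 pools (5 depth bins, monocytes and border macrophages of each library), which share libraries and depth. For Kcnq1ot1 they were Pde4dip (Pearson's r 0.991), Setd5 (0.989) and Pcf11 (0.985), and for Gm34455 Usp48 (0.989), Helz (0.986) and Slc4a7 (0.986). For Neat1 they were Atxn7 (0.962), Zfp217 (0.958) and Zfp516 (0.952), and for Malat1 H2ac6 (0.957), Cdkn2aip (0.952) and D830025C05Rik (0.951). All but D830025C05Rik, a lncRNA, are protein-coding.

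Markers of other cells within gated microglia differed between the libraries beside these results. Summed over their lists, NK cell markers were at 4.97 and 110 CPM (5 and 8 of 8 detected), neutrophil markers at 14.5 and 181 CPM (7 of 7 in each) and monocyte markers at 46.4 and 113 CPM (9 of 11 in each, with the gate genes Ace and Ly6c2 at 0). Erythroid markers were at 89.5 and 464 CPM (5 of 5 in each), while oligodendrocyte markers were close, at 97.2 and 102 CPM. Microglia markers summed to 28959 and 28980 CPM, all 12 detected in each library. The part of these other cells' RNA in the members' values was not tested.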

How the data were processed

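The deposited values are whole UMI counts for each gene and barcode, made by the authors with Cell Ranger 7.0.0 per the file headers (6.0 per the labels' protocols) on GRCm39 per the labels. The annotation release and any counting of introns were not stated in the sources used here. Barcodes under the labels' 500-gene filter are still in the deposited counts. Cells with at least 500 genes and at most 10% mitochondrial UMIs were kept. Classes were gated at 1 UMI of each gene (Ace or Ly6c2 for monocytes). No doublet caller was run, and cells passing several gates were left out, so doublets without a second gate's genes remain. Summed UMI counts gave CPM. With 1 library per genotype no test was made. Genes were called by size, at 1.5-fold relative to the median of genes at 10 CPM or more in either library. Intervals are exact at 95% (Poisson, conditional or binomial) and cover counting error only. A count of 0 allows up to 3 counts. Shares were also computed after thinning each cell to 2000 UMIs, which left out 136 wild-type and 343 knockout gated microglia. Coordinates and gene kinds come from GENCODE M39 on GRCm39, which matched 54749 genes (98.9%) by identifier. Sequences were read from the GRCm39 genome. Named are the members, Msn, genes overlapping a member or nearest to it within 10000 bp, the 3 genes most like each of 4 members among genes at 20 CPM or more in wild-type gated microglia (Pearson's r of log2(CPM + 1)), and the 2 highest and 2 lowest genes of each related list. The neighbours of Gm43221 and Sall1 were named after their values were seen. Members and lists were chosen with earlier results of these data known. Scripts used Python 3.11.15, numpy 2.4.6 and scipy 1.17.1 and were tested on simulated data. The alternatives changed filters, gates, depth, centring and scaling.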

Additional observations from a re-analysis of the deposited data

Results flagged for a closer look

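Malat1 differed in direction between cell classes on one scale each time and not on the other, and these differences were not tested. On the CPM scale its knockout over wild-type log2 ratio was 0.35 in gated monocytes, from 15691 to 20037 CPM, against −0.13 in gated microglia, while relative to the median gene of each class both were above 0, at 0.54 and 0.16. Relative to the median gene it was −0.14 in gated border macrophages, where the wild-type library had 25 cells, against 0.16 in gated microglia, while on the CPM scale both were below 0, at −0.30 and −0.13. All of these values lay within 1.5-fold. NK cell markers in the monocyte gate went from 84.0 to 1016 CPM between wild-type and knockout, and their part in the Malat1 values was not tested.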

How the results depend on the processing

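Of 10 members 9 were lower and 0 higher in gated microglia under the planned settings and under 1 setting added after seeing the data, without microglia under 2500 UMIs. The single-gene values kept their direction and their side of 1.5-fold in 139 of 140 cases. The exception was Malat1, at −0.13 on the CPM scale. The median of the 10 ranged from −1.68 to −1.26, Gm43221 from −5.01 to −4.44 and Neat1 from −1.57 to −1.15 over these settings. Median-of-ratios scaling equals the main centring by construction. With gates not made exclusive, the number of members at least 1.5-fold higher in microglia than in monocytes went from 9 to 0 in the wild-type and from 9 to 2 in the knockout library. Those monocyte gates then hold cells that also pass the microglia gate. No paired analysis was possible because each genotype has 1 library. The wild-type monocyte and border macrophage pools held 404876 and 117910 UMIs, from 55 and 25 cells, the fewest of the 6 gated pools, which widens the intervals there.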
